A study of Mus musculus with 14 samples.

Results

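The difference between Folr4 mutant and wild-type mouse uterus was measured over all 14 arrays of the series, 7 from mutants and 7 from wild-type females. Injection was held in the model, so the value is the genotype difference averaged over both injections, which may differ from that within either. It was taken for all 45037 probe sets that are not array controls, of 45101 on the array. Females were C57BL/6, either wild type or homozygous mutant (Folr4-/-), and whole uteri were taken at day 3.5 of gestation. Of the wild-type females 4 had received saline and 3 folinic acid, and of the mutants 3 had received saline and 4 folinic acid. Folinic acid, a reduced form of folate, was injected intraperitoneally on 2 occasions, 10 and 3 days before mating, at 12.5 mg/kg each, and all animals ate the same chow. The labels give no adult age, no substrain of C57BL/6 and no account of how the mutation was made. They call the replicates biological, but 2 of the numbers in the sample titles are each shared by a pair of wild-type arrays of 1 group. What a shared number means is not stated, so the arrays of such a pair may not be independent. The p-values rest on the spread between arrays, part of which may be technical.

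Folr4, now named Izumo1r and also called Juno, encodes the egg-surface receptor that sperm Izumo1 binds at fertilisation, and it is also found on regulatory T cells. It belongs by sequence to the folate receptor family with Folr1 and Folr2, which bind folate and carry it into cells. In the mouse, the uterus shortly before implantation has an epithelium that has stopped dividing and a stroma that has begun to divide under progesterone.

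The tissue matched its label. The uterine transcription factor and receptor genes Hoxa10, Hoxa11, Esr1 and Pgr had mean signals of 3825 to 12767 in each genotype, where signal is the array's linear intensity and has no physical unit. Ovgp1, a gene of the oviduct, was also present. Its mean signal was 8089 ± 4646 over the 7 wild-type arrays and 4814 ± 2407 over the 7 mutant arrays (SD). Adipoq, a gene of fat cells, had means of 2532 ± 1954 and 1530.0 ± 1247 (SD) over the same arrays. Array medians ran from 129 to 157, and an array's Spearman correlations with the rest averaged 0.932 to 0.953. RNA quality was read from the ratio of 3-prime to 5-prime actin probe sets, which was 1.68 to 3.64 in wild type and 1.54 to 3.12 in mutants.

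Folr4 itself was dim, at percentile 23.04 of all probe sets by mean signal. Wild-type arrays read 19.02, 46.9, 52.7 and 72.4 with saline and 16.3, 13.5 and 54.8 with folinic acid. Mutant arrays read 11.4, 70.2 and 7 with saline and 8.67, 14.8, 41.3 and 6.14 with folinic acid. Both genotypes thus had arrays at the bottom of the range, and 3 of the 7 mutant arrays lay inside the wild-type range. The log2 difference, mutant minus wild type, was -1.02, with p = 0.126 in a two-sided exact permutation test over 1225 relabellings within injection (0.189 adjusted over the 3 receptor genes). With each array left out in turn it ranged from -1.52 to -0.69 (exact permutation p = 0.0343 to 0.293, unadjusted). The value of -1.52 was without mutant saline replicate 2, the 1 mutant array near the wild-type maximum. Leaving out that array had to widen the difference, so its p supports nothing. A signal this low does not allow the genotype labels to be checked.

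Its relatives gave no clearer difference. Folr1, the receptor of epithelia, had a wild-type lowest, median and highest signal of 88.4, 118 and 322, and 59.1, 89.5 and 131 in mutants. The log2 difference was -0.50 (exact permutation p = 0.0988, adjusted 0.189). With each array left out in turn it ranged from -0.61 to -0.32 (exact permutation p = 0.0271 to 0.288, unadjusted). The smallest of these p, at -0.60, was without mutant folinic acid replicate 4. Folr2, a receptor of macrophages, had 217, 466 and 595 in wild type against 179, 301 and 680 in mutants, a log2 difference of -0.31 (exact permutation p = 0.361, adjusted 0.361). Mutant and wild-type arrays overlapped for both genes.

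Of 45037 probe sets, 3 passed an adjusted p of 0.05 in limma (0.00666%), and all 3 were higher in mutants. They were probe sets of Erdr1 and Lrmda and one without a gene symbol. None passed with lower signal in mutants (0.00%), where 952 probe sets had an unadjusted p under 0.05 in limma (2.11%) against 557 with higher signal (1.24%). The median log2 difference over all probe sets was -0.03 and 44.3% were above 0.

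**Figure D1:**
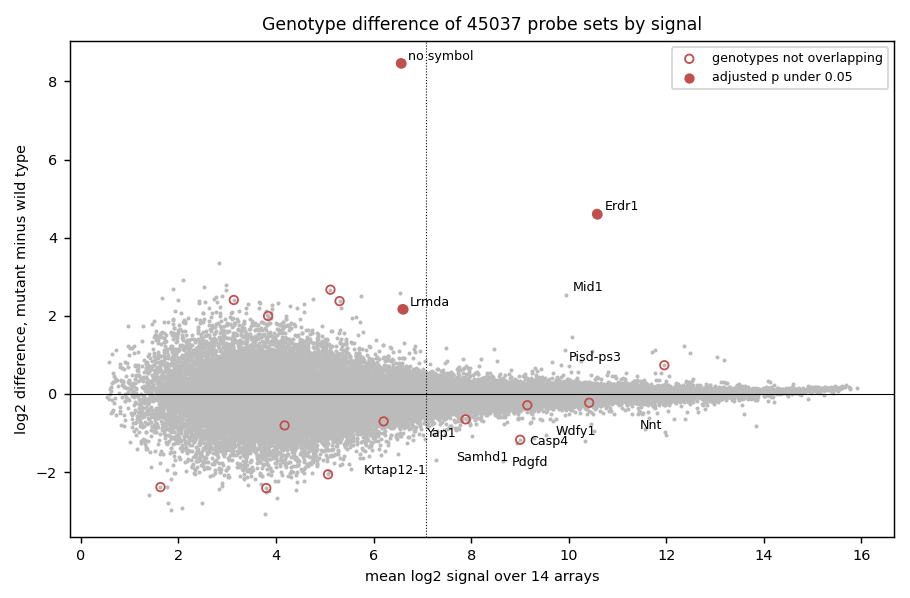
The x axis is the mean log2 signal over 14 arrays and the y axis the log2 difference, mutant minus wild type, of each of the 45037 probe sets (grey points). Filled red points passed an adjusted p of 0.05, open red circles mark probe sets whose 7 mutant arrays do not overlap the 7 wild-type arrays, and the dotted line is the median signal of 134. The 3 filled points all lie above 0, and the spread of differences is widest to the left of the dotted line.

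Erdr1, the erythroid differentiation regulator encoded in the pseudoautosomal region at the end of the sex chromosomes, rose most clearly. Wild-type arrays read 141, 365, 234 and 398 with saline and 569.7, 285 and 336 with folinic acid. Mutant arrays read 11928.5, 8034 and 5956 with saline and 8775, 5553, 8834 and 6066 with folinic acid. The lowest mutant array was therefore far above the highest wild-type array under either injection. Mutant minus wild type gave a log2 difference of 4.61 ± 0.25 (SE), a 24.4-fold rise (adjusted p = 3.54e-08, limma). It was 4.98 ± 0.34 within saline and 4.24 ± 0.34 within folinic acid, and the difference between these did not pass the interaction test (adjusted p = 0.938). A dim second probe set of Erdr1, 1447790_at, read 2.82 to 39.3 in wild type and 52.3 to 125 in mutants. Its genotypes did not overlap either, but its log2 difference of 2.38 ± 0.49 did not pass (adjusted p = 0.790, limma).

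The probe set 1439200_x_at, which carries no gene symbol, was near the bottom of the scale in wild type and bright in mutants. It read 30.8, 5.75, 0.756 and 2.53 with saline and 4.10, 1.88 and 22.4 with folinic acid in wild type. In mutants it read 2469, 1785 and 1344 with saline and 1859, 1829, 2040 and 1399 with folinic acid. On the log2 scale the difference was 8.46 ± 0.62 (adjusted p = 2.57e-06, limma), a size that depends on the floor of 1 set under low signals.

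Lrmda, named for melanocyte differentiation, rose 4.50-fold. Wild-type arrays lay between 23.2 and 63.6 with a median of 47.2, and mutant arrays between 118 and 346 with a median of 235. The genotypes did not overlap, although every wild-type array was below the median signal of all probe sets. The log2 difference was 2.17 ± 0.27 (adjusted p = 0.00582, limma), 2.06 ± 0.40 within saline and 2.28 ± 0.40 within folinic acid. It did not pass in limma on the arrays of a single injection (adjusted p = 0.999 with saline alone, 0.298 with folinic acid alone). A second Lrmda probe set, 1430887_s_at, had a log2 difference of 2.50 ± 0.67 and another, 1431988_at, 0.50 ± 0.63, and neither passed.

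To show what lies before the start of the 1 gene with a reference entry that rose, and of Casp4, the bright gene with the smallest p among those lower in mutants, their promoters are given from RefSeq (GRCm38.p6), from 250 bases before to 50 after the start, on the plus strand at chr14:22019462-22019761 and chr9:5308599-5308898. Capitals mark a CCAAT motif, read on both strands, here as its reverse complement.
Lrmda: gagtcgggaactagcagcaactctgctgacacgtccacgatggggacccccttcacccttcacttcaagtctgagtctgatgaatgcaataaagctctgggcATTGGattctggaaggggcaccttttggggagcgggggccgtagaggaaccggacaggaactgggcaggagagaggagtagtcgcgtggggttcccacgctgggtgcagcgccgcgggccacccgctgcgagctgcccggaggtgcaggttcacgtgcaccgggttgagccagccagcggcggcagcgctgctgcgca
Casp4: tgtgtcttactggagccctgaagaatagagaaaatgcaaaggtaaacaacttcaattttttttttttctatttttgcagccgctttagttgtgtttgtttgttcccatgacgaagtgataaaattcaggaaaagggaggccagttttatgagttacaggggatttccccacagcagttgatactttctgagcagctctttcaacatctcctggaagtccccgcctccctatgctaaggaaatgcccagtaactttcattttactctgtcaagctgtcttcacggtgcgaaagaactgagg
The Lrmda window was 64% G or C with 21 CG dinucleotides and held that motif once. The Casp4 window was 42% G or C with 5 CG dinucleotides. It held none of the motifs searched, which were CCAAT, the TATA box TATAAA, and the GC box GGGCGG. Over 32851 mouse promoters of this length the median was 7 CG dinucleotides. On either strand 37.41% held CCAAT, 13.62% held TATAAA, and 35.66% held GGGCGG. These are descriptions of the windows only.

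Mid1, a microtubule-bound ubiquitin ligase gene that spans the pseudoautosomal boundary near Erdr1, had the next bright difference, which did not pass. Wild-type arrays read between 281 and 645 with a median of 376. Mutant arrays read 4075, 1351 and 3430 with saline and 395, 9196, 3668 and 1711 with folinic acid. Thus 6 of 7 mutant arrays were above every wild-type array, and mutant folinic acid replicate 1 lay inside the wild-type range. The fitted log2 difference was 2.54 ± 0.49 (adjusted p = 0.635, limma), and without that array it was 2.95 and passed (adjusted p = 0.00178, limma). That array was the mutant array most against a difference, and Mid1 passed in no other setting. Both other Mid1 probe sets were dim, at 0.84 ± 0.80 and -0.34 ± 0.54.

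**Figure D2:**
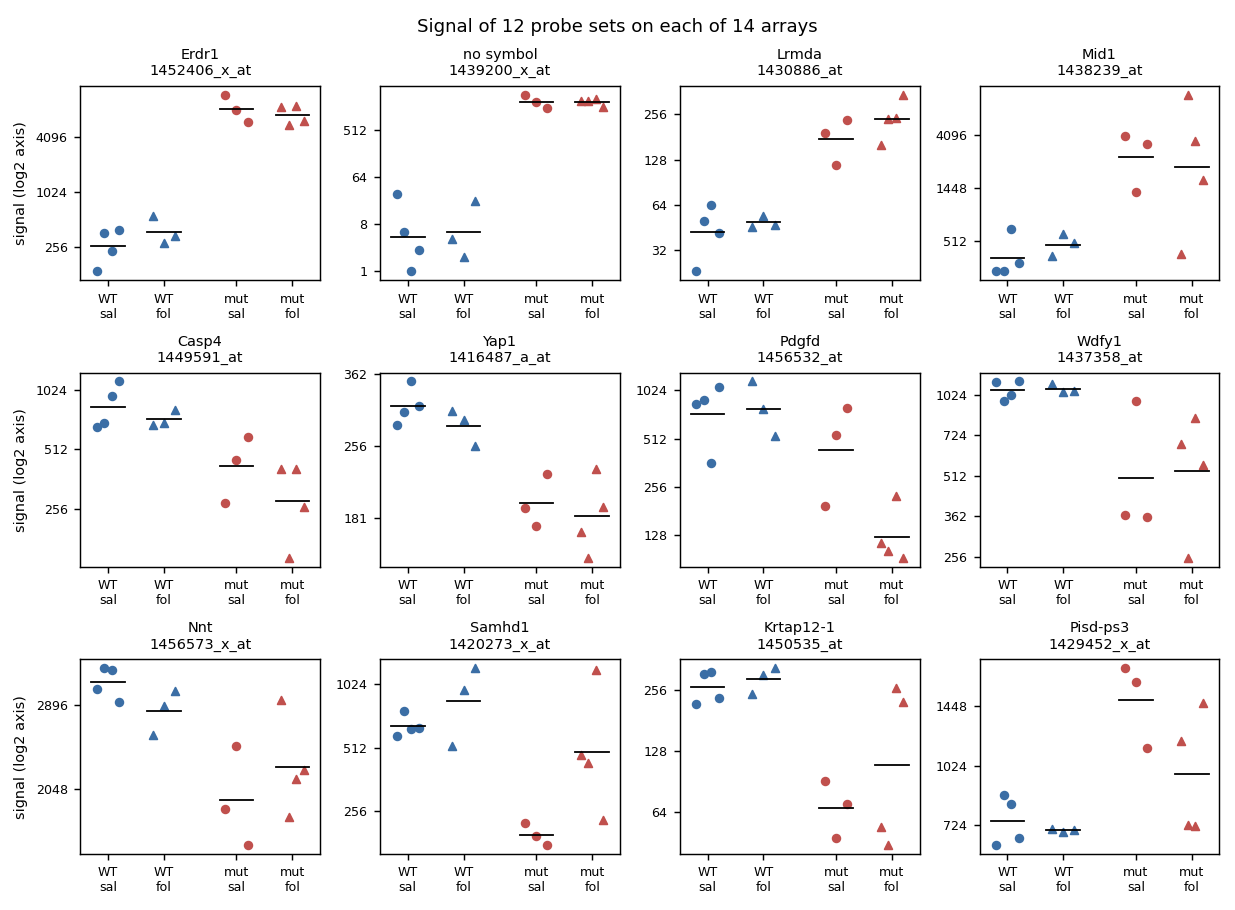
Each panel shows 1 probe set, with the signal of each array on a log2 y axis and the 4 groups on the x axis (WT wild type, mut mutant, sal saline with circles, fol folinic acid with triangles), and bars at the geometric mean of each group, with signals below 1 drawn at 1. Red mutant points lie wholly above the blue wild-type points for Erdr1, 1439200_x_at and Lrmda and wholly below them for Casp4 and Yap1, while single mutant arrays lie among the wild-type points for Mid1, Wdfy1, Nnt and Samhd1.

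Among the other genes with the smallest p and higher signal in mutants, none of which passed, most were read through dim probe sets. Of the 10 genes named on this side, 7 were below the median signal, and 11 of the 16 other probe sets of the same genes had the same sign. Ric8a, a chaperone and exchange factor of G protein alpha subunits, was at 2.67 ± 0.51 on a probe set that read 5.47 to 52.9 in wild type and 58.03 to 135 in mutants (adjusted p = 0.635, limma). Its brightest probe set, with a mean signal of 1668, was at 0.002 ± 0.16, and the remaining ones were at 0.05 and -0.997. Pisd-ps3, a pseudogene of phosphatidylserine decarboxylase, was at 0.74 ± 0.17 and at 0.56 ± 0.17 and 0.64 ± 0.21 on 2 more probe sets. Its 2 brightest, which may share transcripts with the parent gene, were at 0.10 and -0.03. Tc2n (2.0 ± 0.49) and 4930480E11Rik (2.40 ± 0.51) did not overlap between genotypes, but read at most 79.3 and 50.7 on any array. Plaat1 (2.29 ± 0.57), C030013C21Rik (2.42 ± 0.62) and Egfl8 (1.55 ± 0.40) were similarly dim, and the other probe set of Plaat1 did not share its sign.

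Casp4, the caspase that senses cytosolic lipopolysaccharide (caspase-11), had the smallest p of the genes lower in mutants. Wild-type arrays read 661, 696, 951 and 1125 with saline and 678, 696 and 808 with folinic acid. Mutant arrays read 276, 455 and 592 with saline and 408, 146, 409 and 264 with folinic acid. Every mutant array was below every wild-type array. The log2 difference was -1.18 ± 0.23, with signal 2.26-fold higher in wild type, and it did not pass (adjusted p = 0.635, limma). Its neighbours and relatives Casp1 (0.14 ± 0.14), which processes interleukin-1, and Casp12 (-0.12 ± 0.22 and -0.002 ± 0.14) stayed near 0. In the list of caspase and inflammasome genes 10 of 17 measured members were above 0 and 7 below, with a median of 0.03, and 1 had an unadjusted p under 0.05.

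Other lower genes of moderate signal had single mutant arrays within the wild-type range. Wdfy1, an endosomal adaptor of toll-like receptor signalling, read 967 to 1145 in wild type. In mutants it read 367, 967 and 359 with saline and 672, 254, 836 and 561 with folinic acid, so that mutant saline replicate 2 reached the bottom of the wild-type range. This gave a log2 difference of -1.05 ± 0.24 (adjusted p = 0.959, limma), and other probe sets gave -1.13 ± 0.27 and -0.66 ± 0.23, beside 2 dim ones at 0.85 and -0.08. Nnt, the mitochondrial transhydrogenase that makes NADPH, read 2564 to 3383 in wild type and 1619 to 2963 in mutants. Its log2 difference was -0.52 ± 0.12 (adjusted p = 0.9998, limma), and -0.35 ± 0.14 on a second bright probe set. Mutant folinic acid replicate 1, at 2963, was the 1 mutant array inside the wild-type range.

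Samhd1, which breaks down deoxynucleotides, was below 0 on 2 of its 5 probe sets, of which 1 had an unadjusted p under 0.05. This one read 525 to 1220 in wild type, 225, 195 and 178 in mutants with saline and 475, 436, 1193 and 233 in mutants with folinic acid. On the log2 scale this was -1.25 ± 0.29 (adjusted p = 0.959, limma), and -1.48 without mutant folinic acid replicate 3, the array at 1193, where it passed (adjusted p = 0.0263, limma). It also passed on the saline arrays alone (-1.71, adjusted p = 0.0199, limma), and in no other setting. The brightest Samhd1 probe set was at 0.03 ± 0.21, and the other 3 at -0.60, 0.13 and 0.11, so the 5 do not give 1 direction. Krtap12-1, a hair keratin-associated protein gene, read 218.5 to 327 in wild type and 44.2 to 91.05 in 5 mutants, with mutant folinic acid replicates 3 and 4 at 263 and 224 (log2 difference -1.69 ± 0.36, adjusted p = 0.833, limma). The other probe set of Krtap12-1 did not share this sign. Irs4, Cib3 and Brwd3 had log2 differences of -2.66, -2.41 and -2.97 on dim probe sets. For Brwd3 the size depends on the floor of 1, since most mutant arrays read below it.

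The labels name C57BL/6 without a substrain, and Nnt is known to carry a deletion in C57BL/6J. A list of 16 genes reported to differ between C57BL/6 substrains, of which 13 were measured through their brightest probe set, was therefore described. Of these 4 had an unadjusted p under 0.05, namely Erdr1, Mid1, Wdfy1 and Nnt, against 2.94% of all 18193 genes measured in the same way. The other 9, among them Cyfip2 (0.22 ± 0.19), Crb1 (-0.34 ± 0.43), Mmrn1 (-0.09 ± 0.18) and Ide (0.05 ± 0.12), did not, and the median of the list was 0.05. The list was made with the differences of Erdr1, Mid1, Wdfy1 and Nnt known, so its count describes them and supports nothing. The part of the substrain in these differences was not tested.

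Non-overlap of the 7 mutant and 7 wild-type arrays was found for 8 probe sets with higher signal in mutants (0.0178%) and 9 with lower (0.0200%), or 0.0377% in all. At or above the median signal it was found for 6 of 22519 probe sets (0.0266%), a share below that over all probe sets. These were Erdr1, Casp4 and Yap1, 1452590_a_at, to which the annotation gives no single gene (0.73 ± 0.15), and Thap7 (-0.29 ± 0.09) and Fbxw8 (-0.23 ± 0.08). The last of these, Thap7 and Fbxw8, were chosen after their values were seen. None but Erdr1 passed. For Thap7 and Fbxw8 the change was small although their arrays separated.

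The 2 lower genes on chromosome 9 without overlap, Casp4 and Yap1, lie on the same side of Folr4, which is on that chromosome. In the RefSeq gene order (GRCm38.p6), the band of 51 to 100 genes before Folr4 held 39 probe sets of 26 genes, and 6 of them had an unadjusted p under 0.05 (15.4%), against 3.35% of all probe sets and 2.42% on the far remainder of the chromosome. None of the 39 passed after adjustment. Casp4, Pdgfd and Yap1, which lie in this band, were picked from earlier results of these data. The share of the band therefore describes them and supports nothing. Nearer to the gene, 0 of the 22 probe sets within 25 genes before it and 0 of the 16 within 25 genes after it had such a p in limma. Of the 13 probe sets 26 to 50 genes before it, 1 did, that of the phosphoinositide phosphatase Mtmr2 (-0.37 ± 0.12). The immediate neighbour Gpr83, a G protein-coupled receptor, was at -0.46 ± 0.36 and -0.43 ± 0.46. With a single probe set per gene, the brightest, 2 were left in the band of 51 to 100 genes, and 3 on the saline arrays alone.

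The 6 probe sets in that band were split between lower and higher signal. Beside Casp4, 95 genes away, the lower ones were Pdgfd, 90 away, Yap1, 64 away, and Arhgap42, 54 away (-1.23 ± 0.42, dim). The higher ones were Cfap300 (0.50 ± 0.24), 63 away and needed for cilia, and 1 dim probe set of Pgr, 55 away, the progesterone receptor (0.66 ± 0.27). Brighter Pgr probe sets were at 0.11 ± 0.18 and 0.15 ± 0.26, and a brighter one of Arhgap42 was at -0.14 ± 0.14. The matrix metalloproteinase genes that lie between, from Mmp13 to Mmp7, had no member with an unadjusted p under 0.05.

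Pdgfd, a ligand of the PDGF receptor beta, read 839, 887, 359 and 1083 with saline and 1167, 785 and 533 with folinic acid in wild type. In mutants it read 194, 536 and 790 with saline and 113, 101.1, 224 and 91.4 with folinic acid. All 4 mutant folinic acid arrays were below every wild-type array, while mutant saline replicates 2 and 3 lay inside the wild-type range. The log2 difference was -1.71 ± 0.39 (adjusted p = 0.959, limma), -0.76 ± 0.46 within saline and -2.67 ± 0.46 within folinic acid, and the interaction did not pass (adjusted p = 0.938, limma). Dim probe sets of Pdgfd were at -0.44 and -0.53. Among the other PDGF ligands and receptors no member had an unadjusted p under 0.05, with Pdgfc at -0.28 ± 0.17, Pdgfb at -0.09 ± 0.16 and Pdgfa at 0.09 ± 0.21.

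Yap1, the transcriptional coactivator held in check by the Hippo kinases, differed between its 2 probe sets. 1416487_a_at read 284, 302, 350 and 311 with saline and 303, 290 and 256 with folinic acid in wild type, against 190, 174 and 224 and 169, 149, 230 and 191 in mutants. These do not overlap, and the log2 difference was -0.65 ± 0.14 (adjusted p = 0.918, limma), almost equal within saline (-0.67) and folinic acid (-0.63). The brighter 1448363_at, with a mean signal of 4545, was at 0.11 ± 0.11, so a direction for Yap1 depends on the probe set. Of 22 measured genes of the Hippo pathway and its targets, 16 were above 0 and 6 below, with a median of 0.03, and none had an unadjusted p under 0.05.

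**Figure D3:**
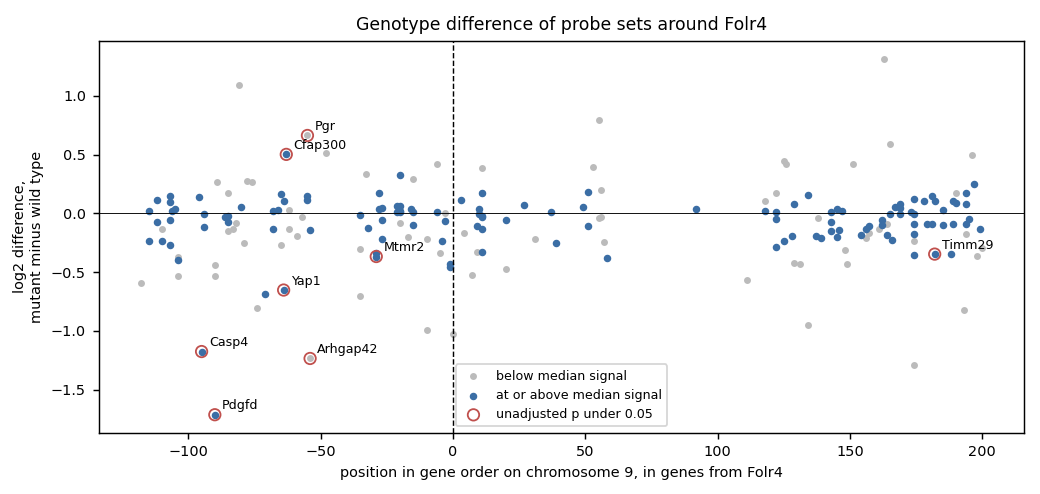
The x axis is the position of a gene on chromosome 9 in gene order, counted in genes from Folr4 (dashed line at 0), and the y axis the log2 difference of each probe set, mutant minus wild type. Red circles mark an unadjusted p under 0.05, blue points probe sets at or above the median signal and grey points those below it. Casp4, Pdgfd, Yap1, Cfap300, Pgr and Arhgap42 are circled 95 to 54 genes before Folr4, and none within 25 genes of it.

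Genotype differences were set side by side within each injection. Within saline 3 probe sets passed (0.00666%), those of Erdr1 and 1439200_x_at and a dim one of Neurl3, a ubiquitin ligase gene (-3.74 ± 0.47, adjusted p = 0.00786, limma), and Neurl3 was at 0.61 ± 0.47 within folinic acid. Neurl3 read 108 to 159 in wild type and 6.30 to 18.7 in mutants with saline. It did not pass on the saline arrays alone (adjusted p = 0.252, limma), nor in limma without wild-type saline replicate 1 or 3 or mutant saline replicate 1 or 2 (adjusted p = 0.0505 to 0.0613), and averaged over injections it was at -1.56 ± 0.62 (adjusted p = 0.9998, limma). Within folinic acid 2 passed (0.00444%), Erdr1 and 1439200_x_at. The interaction of genotype and injection was passed by 0 probe sets in limma (0.00%), with 2277 at an unadjusted p under 0.05 (5.06%). The 12 probe sets plotted by injection had the same sign under both. They were picked by their averaged difference, which favours a shared sign, so this supports nothing.

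**Figure D4:**
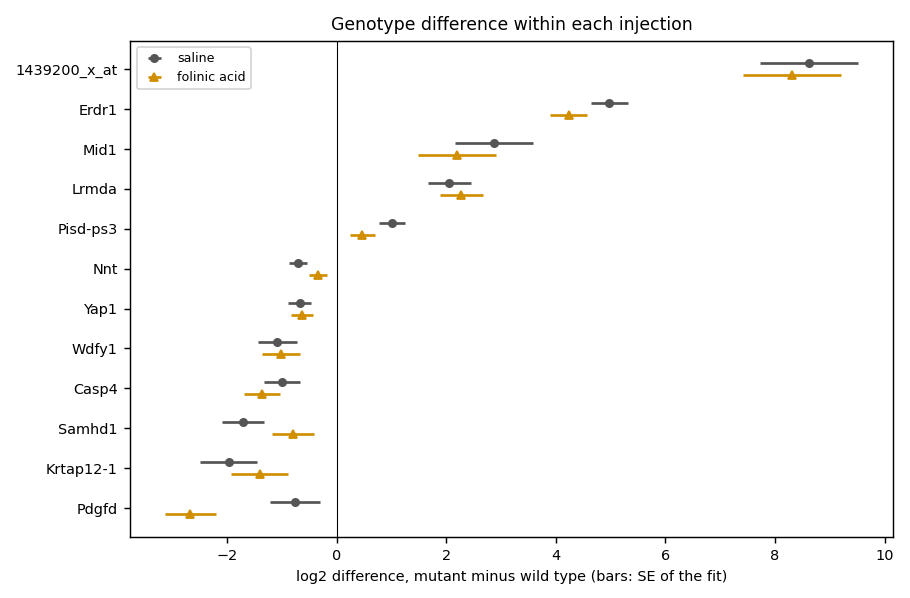
The x axis is the log2 difference, mutant minus wild type, with the standard error of the fit as bars, for 12 probe sets listed on the y axis, within saline (grey circles) and within folinic acid (orange triangles). Each pair lies on the same side of 0, which picking the probe sets by their averaged difference favours. The widest gap relative to its bars is that of Pdgfd, -0.76 and -2.67.

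Gene groups were described through 34 lists, each gene read through its brightest probe set. One of them, of Xist and Y-linked genes, only checks the sex of the animals (4 measured, median 0.26) and is not described further. No list member other than Erdr1 passed, beside 2 of all 18193 genes (0.0110%), so that the counts below are of signs and not of called genes. Over all genes the median was -0.02, with 45.1% above 0. In 24 of the other 33 lists the median within saline and the median within folinic acid had opposite signs, so that an averaged median near 0 does not mean similar values under both. Since whole uterus was measured, fewer cells of a type and less RNA per cell cannot be told apart.

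Most cell cycle genes had a lower signal in mutants, with 28 of 33 measured members below 0 and a median of -0.31. Among them were the mitotic kinesin Kif11 (-0.62 ± 0.29), the cyclin Ccna2 (-0.43 ± 0.20) and the activator of the anaphase-promoting complex Cdc20 (-0.52 ± 0.24), none of which passed. Ccna2 had a lowest, median and highest signal of 569.2, 928 and 1029.9 in wild type and 354, 484 and 997 in mutants, so that the genotypes overlapped. The median lay at -0.009 within saline, where 18 of 33 were lower, and at -0.60 within folinic acid, where 32 of 33 were. It ranged from -0.48 to -0.17 when each array was left out, the smallest without wild-type folinic acid replicate 3. Genes of deoxynucleotide supply had 12 of 16 members below 0 and a median of -0.10, with the nucleoside diphosphate kinase Nme1 at -0.64 ± 0.28 and the thymidine kinase Tk1 at -0.61 ± 0.32, though Tk1 was at 0.007 on the saline arrays alone.

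Folate and one-carbon enzymes, the pathway nearest to the mutated gene's family and to the injected compound, had 28 of 37 measured members below 0, a median of -0.09 and no member with an unadjusted p under 0.05. The reduced folate carrier Slc19a1 read 615, 854 and 939 at its lowest, median and highest in wild type and 595, 708 and 849 in mutants (log2 difference -0.20 ± 0.11). The genotypes overlapped for 6 of 7 mutant arrays. The median of the list was 0.05 within saline and -0.25 within folinic acid, and -0.02 without mutant folinic acid replicate 1.

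Immediate-early and tissue-handling genes, which respond within minutes to handling or injury, had 26 of 28 members above 0 and a median of 0.17. The transcription factors Klf4 (0.32 ± 0.16), Fosb (0.89 ± 0.44) and Junb (0.32 ± 0.19) were the ones with the smallest p. Fosb read at most 67.3 in wild type and 250.1 in mutant folinic acid replicate 1, and the next mutant array read 78.8. The median of the list was 0.09 without that array, and Junb was at -0.02 on the saline arrays alone. The list median was -0.02 within saline, where 12 of 28 were above 0, and 0.35 within folinic acid, where 26 of 28 were.

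Lists of the structural cell types had medians between -0.01 and 0.13. Smooth muscle genes had 21 of 24 members above 0 and a median of 0.13, which was 0.04 after quantile normalization, with the potassium channel subunit Kcnmb1 at 0.51 ± 0.27 and the tropomyosin Tpm2 at 0.24 ± 0.14. The smooth muscle median was 0.12 within saline and 0.14 within folinic acid, with 19 of 24 members above 0 in each. Stromal genes had 17 of 24 above 0 and a median of 0.05, which was -0.001 after quantile normalization, with the matrix protein Dpt at 0.31 ± 0.15. Epithelial genes had 19 of 28 above 0 and a median of 0.07, with the claudin Cldn23 at 0.52 ± 0.31, and the epithelial median was 0.0005 without mutant folinic acid replicate 4. Endothelial genes had 9 of 20 above 0 and a median of -0.01. Oxidative phosphorylation had 18 of 34 above 0 and a median of 0.001, which was -0.02 after quantile normalization. Within saline 28 of the 34 were above 0 (median 0.10), and within folinic acid 27 were below (median -0.08).

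Hormone-response genes showed no common direction. Progesterone-response genes had 15 of 32 above 0 and a median of -0.05, made up of 0.17 within saline and -0.28 within folinic acid. Cyp26a1, which degrades retinoic acid, was at -0.77 ± 0.36, and Hoxa10, a homeobox gene needed for implantation, at -0.23 ± 0.15 but 0.01 on the saline arrays alone. Oestrogen-induced secretory genes had 13 of 21 above 0 and a median of 0.05, with 15 of 21 below 0 within saline (median -0.13) and 15 of 21 above within folinic acid (median 0.29). In the gland list 7 of 14 were above 0, with a median of 0.27 within saline and -0.19 within folinic acid. Its member Spink1, a trypsin inhibitor, read 11.8, 25.7 and 887 at its lowest, median and highest in wild type and 19.9, 255 and 1241 in mutants (2.58 ± 0.94), and 6 of 7 mutant arrays lay inside the wild-type range. Cdh16, a cadherin, was at -0.93 ± 0.42, with 0.20 within saline and -2.07 within folinic acid.

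Medians of the macrophage and MHC class II lists were below 0 within saline and above 0 within folinic acid, and the averaged median lay between. Macrophage and dendritic cell genes had 14 of 25 above 0 and a median of 0.04. Within saline 22 of 25 were below 0 (median -0.41) and within folinic acid 23 of 25 were above (median 0.45). The summed signal of the 25 genes was 23398 to 51572 in wild type and 19245 to 106727 in mutants, and the highest value belonged to mutant folinic acid replicate 1, followed by 38489. Without that array the averaged median was -0.16. MHC class II genes, which present antigen, had 10 of 11 below 0 and a median of -0.11, with all 11 below 0 within saline (median -0.51) and 10 of 11 above within folinic acid (median 0.27), and -0.29 without the same array. The difference between injections was tested for single genes only, in the interaction above, and no gene passed.

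Some antibody genes were among the single immune genes with higher values, but they did not share 1 direction, and none passed. Igkv1-135, on a dim probe set with a mean signal of 5.56, was at -2.80 ± 0.67 (adjusted p = 0.9998, limma). The joining chain gene Jchain read 259, 688 and 1455 at its lowest, median and highest in wild type and 487, 1981 and 3235 in mutants (log2 difference 1.12 ± 0.41). The immunoglobulin A gene Igha had 3 probe sets at 1.21 ± 0.41, 1.13 ± 0.39 and 1.05 ± 0.40, whose probes may also read other antibody genes, and Mzb1, a chaperone of plasma cells, was at 0.59 ± 0.23. For Igha 3 mutant arrays lay inside the wild-type range. The B and plasma cell list as a whole had 7 of 13 above 0, a median of 0.07 and -0.02 without wild-type saline replicate 3. The granulocyte colony-stimulating factor receptor Csf3r was at 1.10 ± 0.37 and the lipopolysaccharide co-receptor Cd14 at 0.53 ± 0.20, both highest in mutant folinic acid replicate 1, at 681 and 5550.2. The granulocyte and mast cell list that holds Csf3r had 10 members above 0 and 10 below, with a median of 0.06 (-0.23 within saline, 0.36 within folinic acid). The mast cell proteases Mcpt4 (-0.89 ± 0.54) and Tpsb2 (-0.83 ± 0.49) were among its members below 0.

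Markers of neighbouring tissues also varied. Adipocyte genes had 11 of 13 below 0 and a median of -0.35. Within saline 8 of 13 were above 0 (median 0.13), and within folinic acid 12 of 13 were below (median -1.10). Their summed signal was 4412 to 70836 in wild type and 8133 to 48254 in mutants, and the median was -0.04 without wild-type folinic acid replicate 3, the array with the highest sum. Ovary and oviduct genes had 9 of 14 below 0 and a median of -0.14. Within saline 12 of 14 were below 0 (median -0.59), and within folinic acid 10 of 14 were above (median 0.17). Among them was the egg coat gene Zp3 at -1.20 ± 0.45 on a dim probe set. In the blood list 6 of 7 were below 0, with the haem synthesis gene Alas2 at -0.50 ± 0.22. The part of these tissues in the differences above was not tested.

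**Figure D5:**
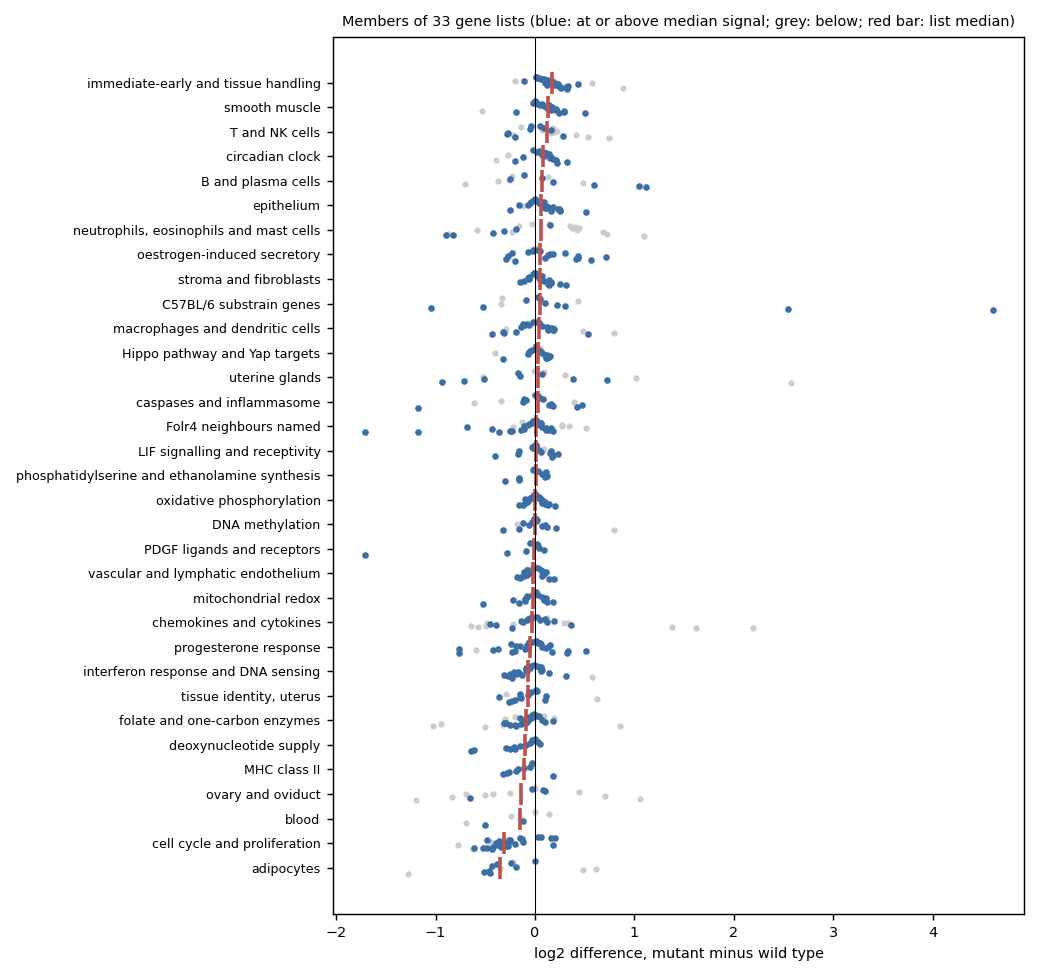
Each row on the y axis is 1 of 33 gene lists, the sex check left out, sorted by its median (red bar), and each point is a member gene read through its brightest probe set, with its log2 difference, mutant minus wild type, on the x axis (blue at or above the median signal, grey below). The medians run from -0.35 for adipocytes to 0.17 for immediate-early genes, and Erdr1 at 4.61 is the 1 point past the threshold.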

How the data were processed

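Per the submitters' processing notes, the signals were made with MAS5 (version not stated) from biotin-labelled one-cycle target, per the labels' protocols. Each deposited value is the linear intensity of a probe set, and all were above 0. Array means, trimmed by 2% at each end, came to about 500.003 throughout, as scaling of every array to 1 target by the authors would give, and nothing further was normalized. Depth does not apply to arrays, and their number limits the precision.

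The 64 control probe sets were left out. Signals below 1 (0.505% of values) were raised to 1 and log2 taken. Of 45037 probe sets, 34945 carried 1 symbol, 932 several and 9160 none in GEO's platform annotation, and 34741 of those with 1 symbol matched RefSeq by gene identifier. Genes are named only from probe sets with 1 symbol.

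Differences are mutant minus wild type from limma 3.58.1 (R 4.3.3), with injection as an additive term, variances moderated with a trend, two-sided tests and Benjamini-Hochberg adjustment over 45037 probe sets at 0.05 (11 residual and 6.21 prior degrees of freedom). Errors are standard errors of the fit. Values within injections and interactions come from a fit of 4 group means (10 residual degrees of freedom). Replicate numbers were not taken as pairs. Of 19 same-numbered pairs 6 had a correlation of deviations over 0.1, with r from -0.34 to 0.35 (median 0.01). The 54 differently numbered pairs ran from -0.47 to 0.47 (median -0.02). The fit was tested on simulated data.

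Named genes were the 10 per direction with the smallest p, up to 3 per list with the smallest p, the folate receptors, and Erdr1, Mid1, Nnt, Samhd1, Wdfy1, Pisd-ps3, Pdgfd, Yap1, Casp1, Casp4 and Casp12, picked from earlier results. The lists, the members named and the comparison were chosen with earlier results of these data known, and the 748 list members, of which 686 were measured, support no test. The alternatives tried were other normalization, an offset of 16, filters on signal, 1 probe set per gene, other variance settings, array weights, an actin ratio covariate, blocks, single injections and leaving out each array in turn.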

Additional observations from a re-analysis of the deposited data

Results flagged for a closer look

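Of 220 groups of arrays examined over 55 genes, 16 held an array set apart from the others by more than the 95% critical value of Dixon's ratio, the gap to the nearest array over the range of the group on the log2 scale, where chance gives about 1 in 20. Among the genes that differ most, the ratio was 0.586 for the lowest wild-type array of Lrmda (saline replicate 1, at 23.2 against 41.9 next). It was 0.974 for the highest mutant array of Brwd3 (saline replicate 3, at 4.01 against 1.04 next). The remaining mutant arrays of Brwd3 were raised to the floor of 1, which sets this ratio. The highest wild-type saline array of C030013C21Rik had 0.89 (replicate 3, at 62.7 against 4.98). Wild-type saline replicate 3, the array with the highest actin ratio, was also the highest wild-type array for Folr1 (0.626) and the lowest for Slc19a1 (0.578) and Ptdss2 (0.661), and the lowest of its group for Klf4 (0.87). Mutant folinic acid replicate 1, with the highest macrophage sum, was the highest mutant array for Cd14 (0.605, and 0.89 within its group) and Fosb (0.654). Mutant folinic acid replicate 2 was the lowest of its group for Casp12 (0.843) and the lowest mutant array for Kif11 (0.602). The remaining arrays were wild-type saline replicate 1, lowest of its group for Ccna2 (0.933), wild-type folinic acid replicate 1, lowest wild-type array for Nme1 (0.736) and highest for Spink1 (0.674), and mutant folinic acid replicate 3, lowest of its group for Zp3 (0.902). No interaction of genotype and injection passed for the named genes (lowest adjusted p = 0.938, limma).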

How the results depend on the processing

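Erdr1 passed in all 30 settings run, the main one included, 1439200_x_at in 27 and Lrmda in 26, filters on signal and single injections accounting for the losses of the last. The number of probe sets that passed was 1 with a filter at the median signal and 1 at the upper 35 percent, all higher in mutants and both filters removing 1439200_x_at and Lrmda from the test. It was 3 to 5 when each array was left out, with 3 to 5 higher and 0 to 1 lower. It was 5 without mutant folinic acid replicate 1, where Mid1 and 1426140_x_at joined. With the saline arrays alone 1 lower probe set passed, that of Samhd1 (-1.71). Probe sets with an unadjusted p under 0.05 numbered 451, 250 and 525 under the filter at the median signal, the filter at the upper 35 percent and 1 probe set per gene, which test fewer, and 1344 to 1878 when each array was left out. In the band of 51 to 100 genes before Folr4 they numbered 2 under the filter at the upper 35 percent, 2 with 1 probe set per gene, 3 with the saline arrays alone, and 4 to 6 when each array was left out. With each array left out, the difference of Folr4 (Izumo1r) ranged from -1.52 to -0.69 (exact permutation p = 0.0343 to 0.293), and that of Folr1 from -0.61 to -0.32 (exact permutation p = 0.0271 to 0.288).

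Of 1543 values for 55 genes under the other settings, 1532 kept their direction and side of the threshold, 2 no longer passed (both Lrmda, within 1 injection) and 4 newly passed. For genes that did not pass in the main fit, this asks only for the same sign and no pass. Sizes of dim genes moved more. Over the settings that did not leave out single arrays, Brwd3 ranged from -3.26 to -0.75 and Plaat1 from 0.86 to 3.72. The 4 that newly passed were Ric8a without wild-type folinic acid replicate 3 (3.13, adjusted p = 0.0307, limma), Mid1 without mutant folinic acid replicate 1, and Samhd1 with the saline arrays alone and without mutant folinic acid replicate 3. Signs turned in 5, none past the threshold: with each array left out Casp12 ranged from -0.204 to 0.0384, the latter without mutant folinic acid replicate 2, and with the saline arrays alone Tk1 was at 0.00705, Cdh16 at 0.204, Junb at -0.0180 and Hoxa10 at 0.0142. The cause was not tested. Within 1 injection, in alternatives chosen after seeing the data, Erdr1 and 1439200_x_at passed with each of the 14 arrays left out, and Neurl3 within saline in 10 of 14 (-4.20 to -3.41). With the replicate number as a replicate block 3 probe sets passed. The same-numbered arrays showed no wider range of correlated deviations than others. Their 19 pairs had r from -0.34 to 0.35 (median 0.01), against -0.47 to 0.47 (median -0.02) for 54 differently numbered pairs. The block changed no call of a named gene. With the title number as a random block (correlation 0.145) 3 passed as well.

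Limits are the 14 arrays, the dim signal of Folr4, Lrmda and most genes with large differences, and the unstated substrain. Without detection calls, which were not used here, signal over background was not assessed.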
